A study of Homo sapiens with 8 samples.

Results

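Expression of genes for steroid, cholesterol and fatty acid metabolism was compared between LNCaP clones over-expressing *HIST1H1A* and clones carrying the control vector. The list held 53 genes, chosen by name and with earlier results of these data known. Of the list, 27 genes were measured, meaning that a transcript cluster (a set of probes summarized as 1 gene) carried their name. In all, 4072 genes were named. The other 26 were not analysed here, among them all 9 cytochrome P450 enzymes, the 4 *AKR1C* reductases, *HSD3B1*, *HSD3B2* and *HSD3B7*, the scavenger receptor gene *SCARB1* and the oxysterol receptor gene *NR1H3*. LNCaP is an androgen receptor positive human prostate tumor cell line. Cells were transduced with lentivirus holding either the empty control vector or HA-tagged *HIST1H1A*, which encodes the linker histone H1.1, and both groups were stably selected and grown up as clonal isolates. Affymetrix Human Gene ST arrays measured RNA of 4 control clones (clones 3, 4, 8 and 9) and 4 *HIST1H1A* clones (clones 2, 8, 9 and 10). Each clone had 1 array, so that differences between clones and differences in measurement cannot be told apart. The over-expressed gene itself was not analysed here, so the labels could not be checked against it.

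Cells build cholesterol from acetyl-CoA through mevalonate and a series of isoprenoid and sterol intermediates, and they store the surplus as esters in lipid droplets. Fatty acids are made from malonyl-CoA, then lengthened by elongases and given double bonds by desaturases, or they are carried into mitochondria on carnitine and oxidized. In prostate cells, androgens are steroid hormones that drive growth through the androgen receptor, and hydroxysteroid dehydrogenases convert weak and potent androgens into each other.

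Of the 27 measured members, 5 (18.5%) passed the test, which was limma with Benjamini-Hochberg adjustment over all 16377 transcript clusters and an adjusted p under 0.05. In *HIST1H1A* clones 2 rose, *FADS1* and *HSD17B6*, and 3 fell, *ELOVL1*, *CPT1A* and *PMVK*. The other 22 did not pass. Since RNA came from whole cultures, fewer cells with a transcript and less of it per cell cannot be told apart. In the background, 12.5% of the 4072 named genes passed, 8.72% higher and 3.83% lower, and of all clusters 5.79% passed, 3.77% higher and 2.02% lower. The median log2 fold change of the measured members was 0.003, with 14 estimates above 0 and 13 below, against 0.03 over all named genes and -0.01 over all clusters. The log2 signals of the 4 control and 4 *HIST1H1A* clones did not overlap in 7 members, namely the 5 that passed, *FADS3* and *ACSL5*, where the background over named genes was 20.1%. A fold change over 2 in either direction was estimated for *FADS2*, *ELOVL1* and *FADS1*, beside 10.3% of named genes. The study read its arrays at a fold change over 2 and a false discovery rate under 0.05. Of the members, *ELOVL1* and *FADS1* alone passed both here. With means under 3.27 in both groups, the median of all array values, 5 members were dim, namely *HSD17B7*, *HSD17B12*, *IDI2*, *ELOVL3* and *ACSL5*. No background level was set.

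**Figure D1:**
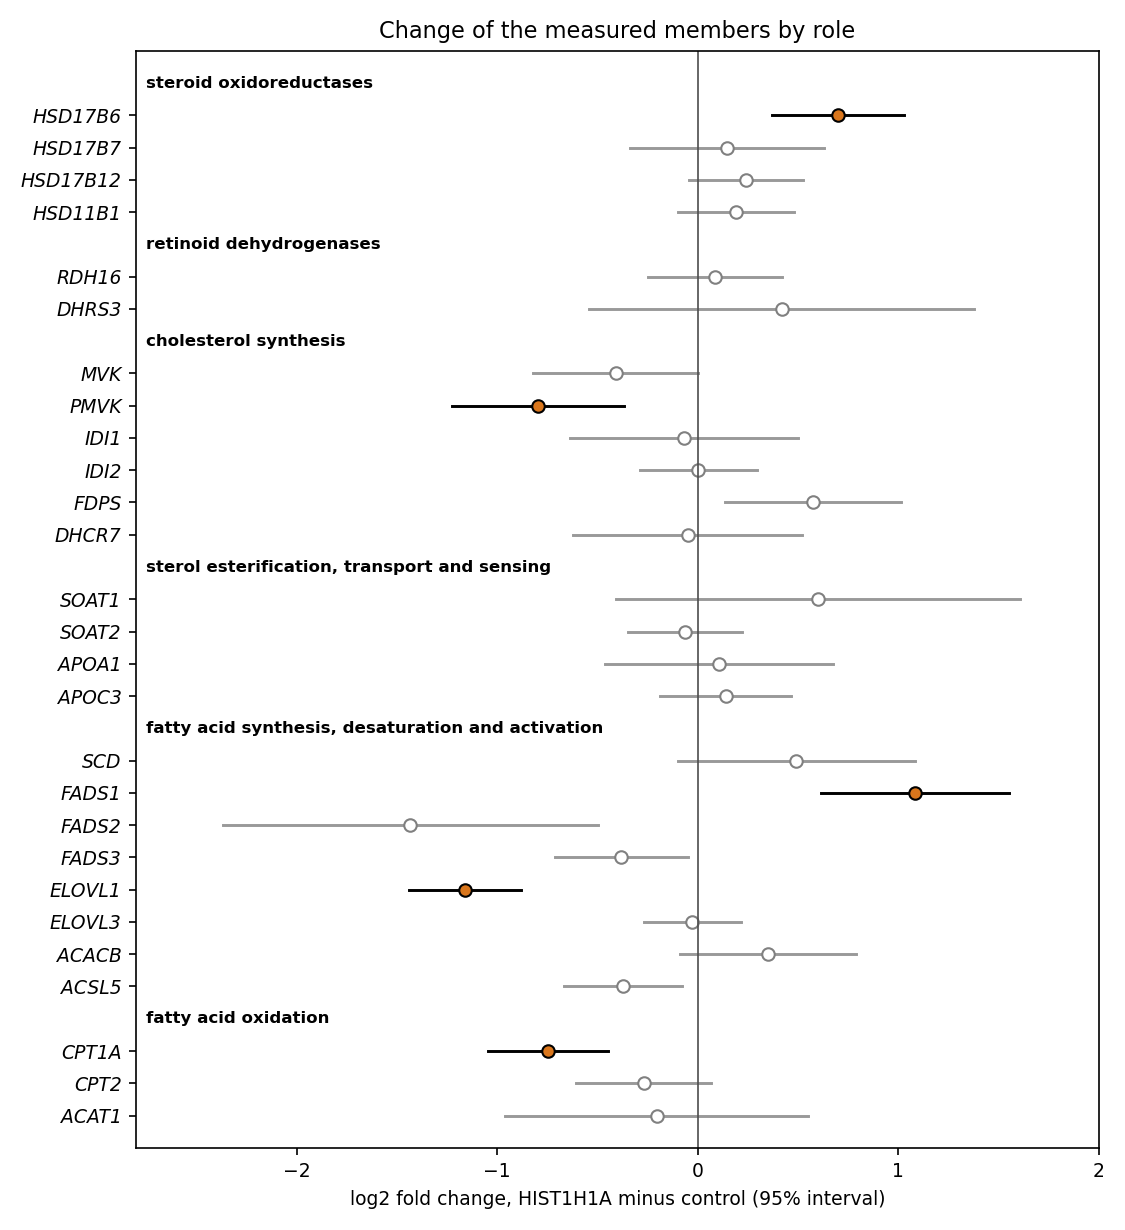
Log2 fold change (*HIST1H1A* minus control, x axis) of each of the 27 measured members, grouped by role, with 95% confidence intervals from limma; filled points passed at an adjusted p under 0.05. The 5 filled points lie on both sides of 0, from -1.16 for *ELOVL1* to 1.08 for *FADS1*, and the open point farthest to the left is *FADS2* at -1.43.

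Among the 4 measured steroid oxidoreductases, *HSD17B6* rose and the other 3 did not pass. *HSD17B6* encodes an oxidoreductase that can turn an inactive androgen metabolite back into dihydrotestosterone. Its log2 signals (cluster 16752682) were 4.01, 3.52, 3.55 and 3.61 in control clones 3, 4, 8 and 9 and 4.21, 4.51, 4.48 and 4.30 in *HIST1H1A* clones 2, 8, 9 and 10. Every *HIST1H1A* clone lay above every control clone, and control clone 3 came nearest. This was a 1.63-fold rise (log2 fold change 0.70, standard error 0.14, adjusted p = 0.0240 from limma). The call was lost when control clone 4, 8 or 9 or *HIST1H1A* clone 8, 9 or 10 was left out, with log2 fold changes of 0.65 to 0.73 (adjusted p = 0.0540 to 0.0825 from limma). The estimates of the other 3 were also above 0. They were 0.15 for *HSD17B7*, an enzyme of both estradiol and cholesterol synthesis, 0.24 for *HSD17B12*, a reductase of fatty acid elongation, and 0.19 for *HSD11B1*, which regenerates cortisol from cortisone (adjusted p = 0.850, 0.450 and 0.617 from limma). Their 95% intervals all held 0.

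Neither of the 2 measured retinoid dehydrogenases passed. *RDH16*, a retinol dehydrogenase, had means of 3.55 ± 0.14 and 3.63 ± 0.24 (SD, n = 4 each) in control and *HIST1H1A* clones. *DHRS3* reduces retinal to retinol, and its log2 signals were 5.22, 6.84, 5.08 and 4.96 in control clones 3, 4, 8 and 9 and 5.42, 6.35, 6.25 and 5.75 in *HIST1H1A* clones 2, 8, 9 and 10. Control clone 4 was the highest of all 8, and the other 3 control clones lay below every *HIST1H1A* clone. The log2 fold change was 0.42 (95% interval -0.54 to 1.38, adjusted p = 0.771 from limma), and 0.86 without control clone 4.

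In the cholesterol synthesis pathway, 1 of the 6 measured members fell, none rose, and the median log2 fold change was -0.06. *PMVK* encodes phosphomevalonate kinase, which adds the second phosphate to mevalonate. Its log2 signals (cluster 16693864) were 7.62, 7.46, 7.39 and 6.77 in control clones 3, 4, 8 and 9 and 6.68, 6.44, 6.58 and 6.37 in *HIST1H1A* clones 2, 8, 9 and 10. The groups did not overlap, although control clone 9 lay close to *HIST1H1A* clone 2. The fall was 1.73-fold (log2 fold change -0.79, standard error 0.19, adjusted p = 0.0453 from limma). This call was near the threshold, and it was lost when control clone 3, 4 or 8 or any one of the *HIST1H1A* clones was left out, with log2 fold changes of -0.85 to -0.69 (adjusted p = 0.0770 to 0.136 from limma). With all 8 arrays it was also lost under limma's trend and robust settings (adjusted p = 0.0788) and after quantile normalization (adjusted p = 0.0752 from limma). *MVK* encodes mevalonate kinase, which acts one step earlier, and its estimate was -0.41 (95% interval -0.82 to 0.001, adjusted p = 0.333 from limma). The estimate of *FDPS*, the farnesyl diphosphate synthase that acts further down the pathway, was above 0. Its log2 signals were 6.35, 5.80, 5.73 and 5.43 in control clones 3, 4, 8 and 9 and 6.23, 6.45, 6.38 and 6.55 in *HIST1H1A* clones 2, 8, 9 and 10. Control clone 3 lay within the range of the *HIST1H1A* clones and the other 3 control clones lay below it. The log2 fold change of *FDPS* was 0.57 (adjusted p = 0.163 from limma), and without control clone 3 it was 0.75 and passed (adjusted p = 0.0253 from limma). The estimates of the isomerase genes *IDI1* and *IDI2*, which are neighbours on chromosome 10, were -0.07 and 0.003. That of *DHCR7*, which catalyzes a last step of cholesterol synthesis, was -0.05, and all 3 intervals held 0.

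A wider list of 23 genes of cholesterol biosynthesis had 9 measured, of which 1 rose and 2 fell, with a median log2 fold change of -0.05. The 2 measured genes of this list beyond the members above were *LBR* and *TM7SF2*, and they passed in opposite directions. Both encode sterol reductases that carry out the same step of cholesterol synthesis, and the product of *LBR*, the lamin B receptor, also anchors chromatin at the inner nuclear membrane. The log2 signals of *LBR* were 6.45, 6.72, 6.66 and 7.01 in control clones 3, 4, 8 and 9 and 8.55, 7.33, 7.75 and 8.25 in *HIST1H1A* clones 2, 8, 9 and 10. Those of *TM7SF2* were 6.97, 6.68, 5.76 and 5.97 in the control clones and 4.66, 5.33, 4.86 and 4.93 in the *HIST1H1A* clones, in the same order. Neither gene overlapped between the groups. *LBR* rose 2.39-fold (log2 fold change 1.26, adjusted p = 0.0248 from limma) and *TM7SF2* fell 2.64-fold (log2 fold change -1.40, adjusted p = 0.0210 from limma). The call of *LBR* was lost without control clone 3, 4 or 8 or *HIST1H1A* clone 9 or 10 (log2 fold changes 1.17 to 1.33, adjusted p = 0.0555 to 0.0813 from limma). The call of *TM7SF2* was lost without control clone 4 or *HIST1H1A* clone 2, 9 or 10 (-1.40 to -1.29, adjusted p = 0.0648 to 0.0713 from limma).

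No member for sterol esterification or transport passed. *SOAT1* and *SOAT2* encode the enzymes that esterify cholesterol for storage. The log2 signals of *SOAT1* were 6.08, 7.0, 7.21 and 8.43 in control clones 3, 4, 8 and 9 and 8.18, 7.35, 7.63 and 7.97 in *HIST1H1A* clones 2, 8, 9 and 10. Control clone 9 was the highest of all 8 and the other 3 control clones lay below every *HIST1H1A* clone. Its log2 fold change was 0.60 (95% interval -0.41 to 1.61, adjusted p = 0.665 from limma), and 1.02 without control clone 9, where it also did not pass (adjusted p = 0.116 from limma). The estimates were -0.06 for *SOAT2*, 0.11 for *APOA1*, the main protein of high-density lipoprotein, and 0.14 for *APOC3*, an inhibitor of lipoprotein lipase, and these 3 intervals held 0. *APOA1* and *APOC3* are neighbours on chromosome 11. In a wider list of 30 genes of cholesterol uptake, storage and transport, 12 were measured, of which 1 rose and none fell, with a median of -0.14. The one that rose was *OSBPL9*, a gene of the oxysterol-binding protein family, from 5.26 ± 0.29 to 6.23 ± 0.29 (SD, n = 4 each), a 1.96-fold change (adjusted p = 0.0203 from limma). Its call was lost without control clone 3, 4 or 8 or *HIST1H1A* clone 2, 9 or 10 (log2 fold changes 0.89 to 0.98, adjusted p = 0.0525 to 0.0714 from limma).

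**Figure D2:**
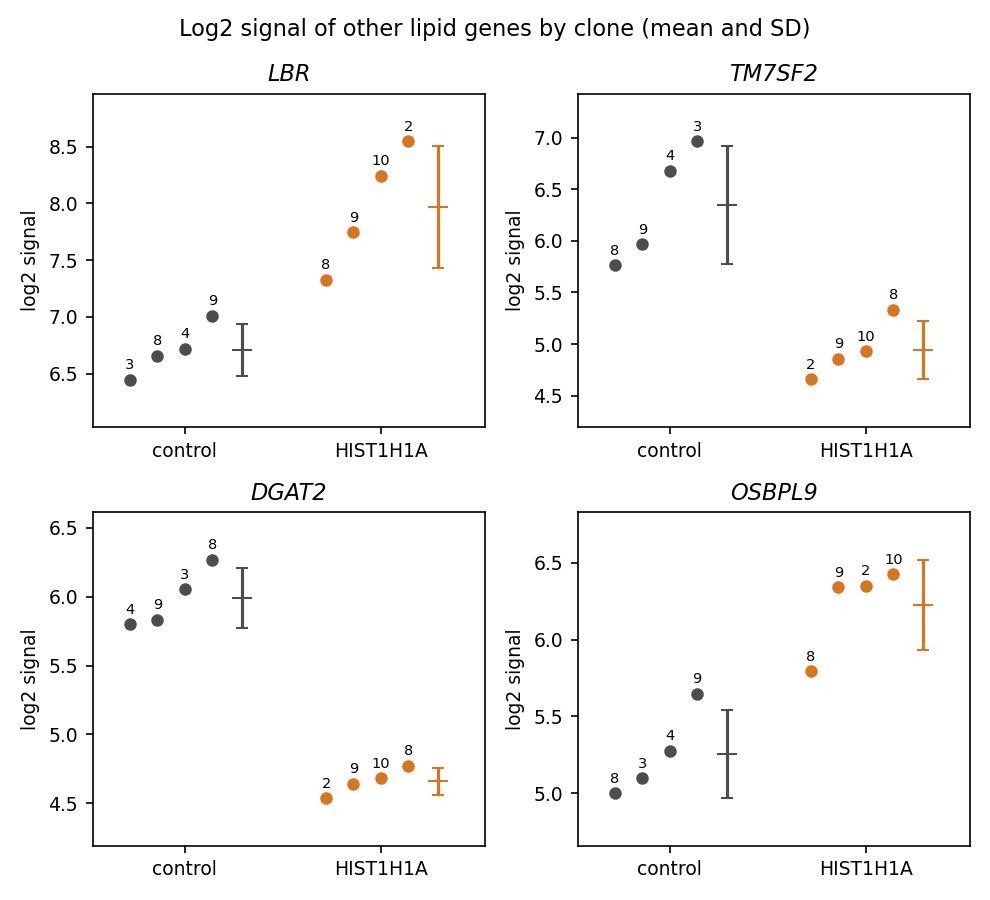
Log2 signal (y axis) of *LBR*, *TM7SF2*, *DGAT2* and *OSBPL9* on each array, with clone numbers above the points and the group mean with its SD (n = 4) beside them. *LBR* and *OSBPL9* were higher and *TM7SF2* and *DGAT2* lower in every *HIST1H1A* clone than in every control clone; each panel has its own y axis, which does not start at 0.

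The members for fatty acid synthesis, desaturation and activation were all measured. Of these 8, 1 rose, 1 fell and 6 did not pass, and all 3 members with a fold change over 2 belonged to this group. *ELOVL1* encodes an elongase that lengthens saturated and monounsaturated fatty acids to very long chains. Its log2 signals (cluster 16686122) were 9.25, 9.00, 8.96 and 8.80 in control clones 3, 4, 8 and 9 and 7.76, 7.85, 7.93 and 7.84 in *HIST1H1A* clones 2, 8, 9 and 10. The lowest control clone lay well above the highest *HIST1H1A* clone, and both groups were tight. The log2 fold change was -1.16 (standard error 0.12, adjusted p = 0.000857 from limma), a 2.23-fold fall. It was called in all 16 other settings that used at least 7 arrays and tested against no change, with log2 fold changes from -1.23 to -1.08 (adjusted p at most 0.00505).

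*FADS1* and *FADS2* encode the desaturases that make polyunsaturated fatty acids, and *FADS3* a related desaturase that acts on sphingoid bases. The 3 genes are neighbours on chromosome 11 with no other protein-coding gene between them. *FADS1* rose. Its log2 signals (cluster 16739132) were 6.97, 7.65, 7.11 and 6.81 in control clones 3, 4, 8 and 9 and 7.91, 8.12, 8.36 and 8.49 in *HIST1H1A* clones 2, 8, 9 and 10. Control clone 4 came nearest to the *HIST1H1A* clones without reaching them. The log2 fold change was 1.08 (standard error 0.21, adjusted p = 0.0161 from limma), a 2.12-fold rise, and the call was lost without *HIST1H1A* clone 9 or 10 (log2 fold changes 1.04 and 0.996, adjusted p = 0.0600 and 0.0559 from limma).

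*FADS2* had the opposite sign and depended on 1 control clone. Its log2 signals (cluster 16725742) were 7.56, 7.34, 7.02 and 5.46 in control clones 3, 4, 8 and 9 and 5.30, 5.60, 5.34 and 5.41 in *HIST1H1A* clones 2, 8, 9 and 10. Control clone 9 lay within the range of the *HIST1H1A* clones, while the other 3 control clones lay far above it. The log2 fold change was -1.43 (standard error 0.41, 95% interval -2.37 to -0.50), which did not pass (adjusted p = 0.0955 from limma). Without control clone 9 it was -1.89 and passed (adjusted p = 0.000653 from limma). *FADS3* had means of 5.29 ± 0.22 and 4.91 ± 0.17 (SD, n = 4 each), and its groups did not overlap, with control clone 8 at 5.20 and *HIST1H1A* clone 8 at 5.15. Its log2 fold change of -0.38 did not pass (adjusted p = 0.236 from limma).

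**Figure D3:**
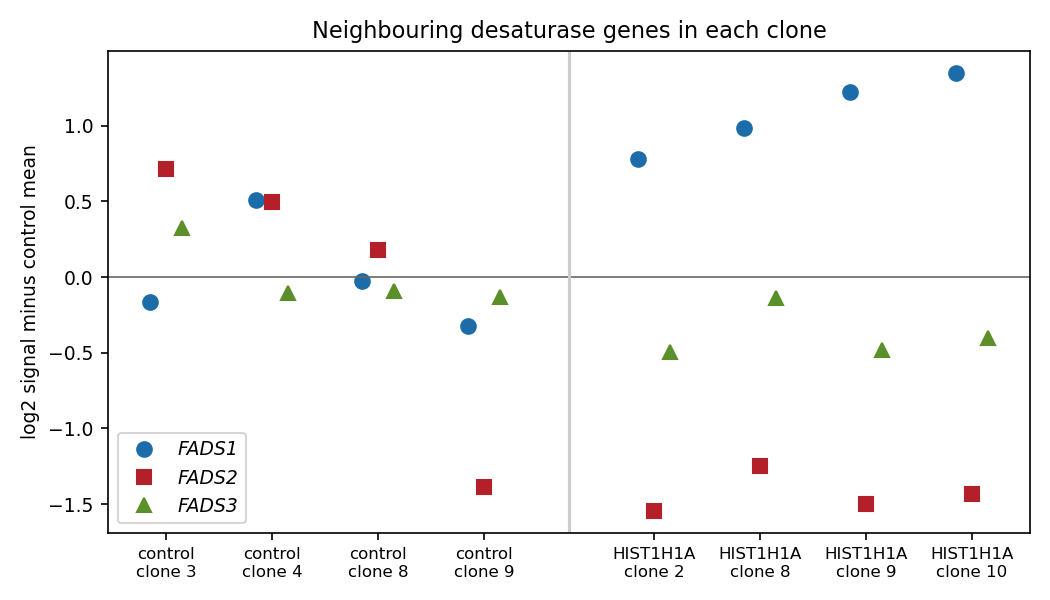
Log2 signal of *FADS1*, *FADS2* and *FADS3* in each clone minus that gene's mean over the 4 control clones (y axis), for the control clones (left) and the *HIST1H1A* clones (right). In *HIST1H1A* clones *FADS1* lay above 0 and *FADS2* and *FADS3* below it; control clone 9 had *FADS2* at a log2 signal of 5.46, as low as in *HIST1H1A* clones.

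The difference between *FADS1* and *FADS2* on the same array is given as a description, for a pair chosen after its values were seen. It carries an unknown offset that is the same on every array, so only its change between groups was read. *FADS1* minus *FADS2* was -0.59, 0.31, 0.09 and 1.35 in control clones 3, 4, 8 and 9 and 2.62, 2.53, 3.01 and 3.08 in *HIST1H1A* clones 2, 8, 9 and 10. Control clone 9 was the highest of the control clones and still lay below all 4 *HIST1H1A* clones. The change was 2.52. *LBR* minus *TM7SF2*, chosen in the same way, changed by 2.66.

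The remaining 4 members of the group did not pass. *SCD* encodes the desaturase that makes monounsaturated fatty acids, and its log2 signals were 10.04, 10.76, 10.00 and 9.35 in control clones 3, 4, 8 and 9 and 10.42, 10.46, 10.66 and 10.58 in *HIST1H1A* clones 2, 8, 9 and 10. The *HIST1H1A* clones lay within the wider range of the control clones. For *SCD* the log2 fold change was 0.49 (95% interval -0.10 to 1.08, adjusted p = 0.465 from limma). *ACACB*, the acetyl-CoA carboxylase whose malonyl-CoA restrains carnitine transfer at mitochondria, had an estimate of 0.35, and *ELOVL3*, a further elongase, one of -0.03. Both intervals held 0. *ACSL5* encodes an enzyme that activates fatty acids with coenzyme A. It was at 2.93 ± 0.21 and 2.56 ± 0.07 (SD, n = 4 each), without overlap but dim in both groups, and its log2 fold change of -0.37 did not pass (adjusted p = 0.180 from limma).

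A wider list of 38 genes of fatty acid and triglyceride synthesis had 11 measured, of which 1 rose and 2 fell, with a median log2 fold change of -0.37. *DGAT2*, the only one of the 3 that is no member, encodes an acyltransferase for the last step of triglyceride synthesis. Its log2 signals were 6.05, 5.80, 6.27 and 5.83 in control clones 3, 4, 8 and 9 and 4.54, 4.77, 4.64 and 4.68 in *HIST1H1A* clones 2, 8, 9 and 10. Every *HIST1H1A* clone lay far below every control clone. It fell 2.52-fold (log2 fold change -1.33, standard error 0.13, adjusted p = 0.000657 from limma) and was called in all 16 of those other settings.

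Of the 3 measured members for fatty acid oxidation, 1 fell and the estimates of all 3 were below 0. *CPT1A* encodes the carnitine acyltransferase of the outer mitochondrial membrane, the rate-limiting step of fatty acid oxidation. Its log2 signals (cluster 16741287) were 9.32, 9.55, 9.29 and 9.35 in control clones 3, 4, 8 and 9 and 8.36, 8.64, 8.70 and 8.82 in *HIST1H1A* clones 2, 8, 9 and 10. The groups were clearly apart, and clone 2 was the lowest of the *HIST1H1A* clones. *CPT1A* fell 1.68-fold (log2 fold change -0.75, standard error 0.13, adjusted p = 0.0117 from limma). It was called in all 16 of those other settings (adjusted p at most 0.0401). *CPT2*, the partner enzyme of the inner membrane, had an estimate of -0.27 (95% interval -0.61 to 0.07, adjusted p = 0.495 from limma). That of *ACAT1*, a mitochondrial thiolase of ketone body metabolism, was -0.20 (95% interval -0.96 to 0.55, adjusted p = 0.871 from limma). A wider list of 40 genes of fatty acid oxidation and ketone bodies had 5 measured, and none besides *CPT1A* passed.

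**Figure D4:**
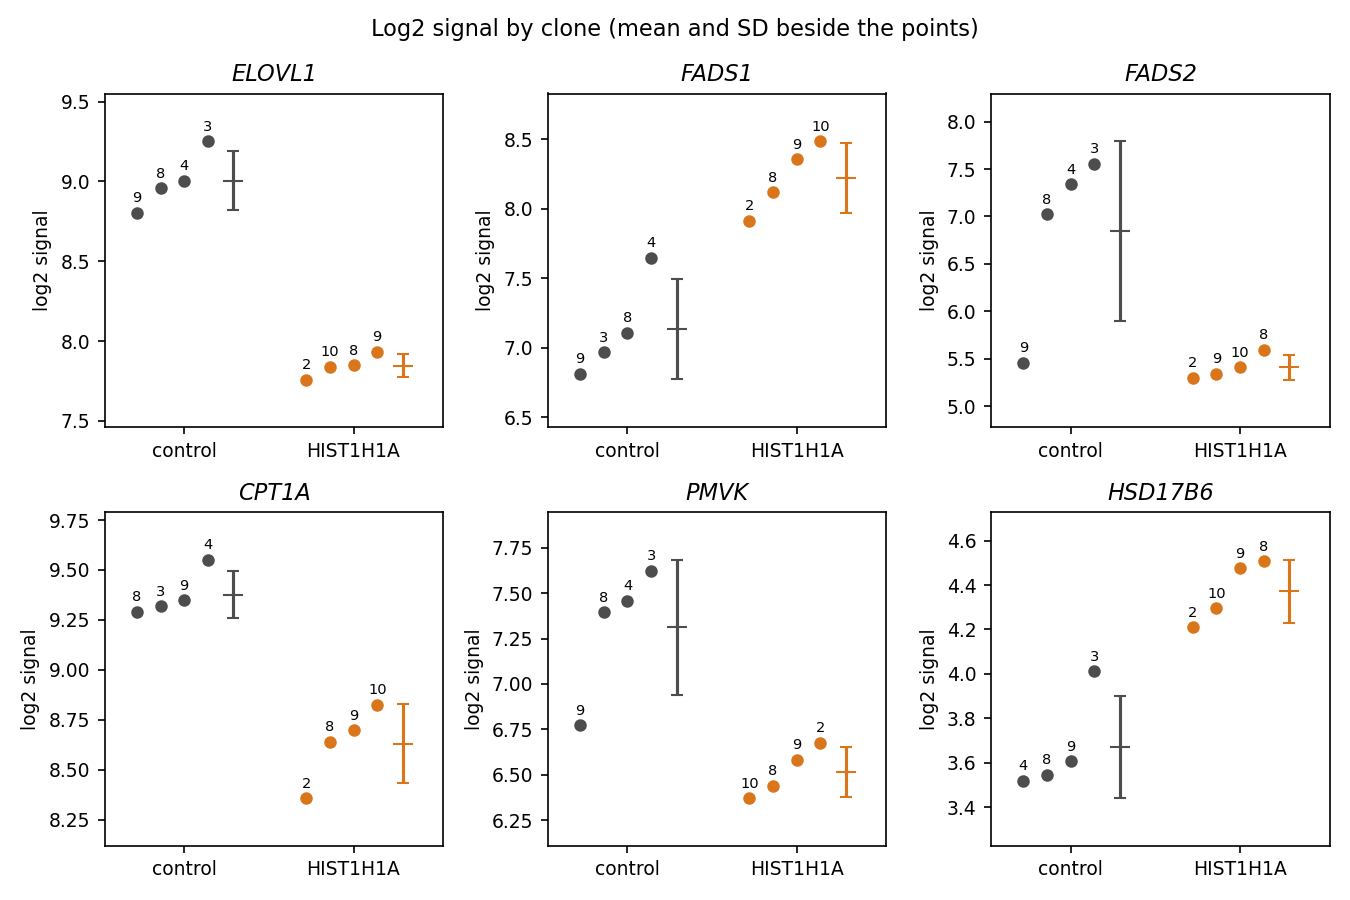
Log2 signal (y axis) of the 5 members that passed and of *FADS2* on each array, with clone numbers above the points and the group mean with its SD (n = 4) beside them; each panel has its own y axis, which does not start at 0. The groups were apart in every panel but that of *FADS2*, where control clone 9 at 5.46 lay among the *HIST1H1A* clones.

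The members varied more between control clones than between *HIST1H1A* clones. The median SD of the 27 members was 0.26 in control and 0.16 in *HIST1H1A* clones on the log2 scale, and the control SD was the larger in 20 of 27 members (74.1%). Over all named genes the control SD was the larger in 69.0%, and over all clusters in 65.0%, so the members did not stand out in this. The control SD was largest for *SOAT1*, *FADS2* and *DHRS3*, at 0.97, 0.95 and 0.88, against 0.37, 0.13 and 0.44 in *HIST1H1A* clones. Control clone 9 lay farthest from the control median in 8 of 27 members, and control clones 3, 4 and 8 in 6, 7 and 6. In named genes the shares were 38.2% for clone 9 and 26.3%, 11.4% and 24.1% for clones 3, 4 and 8. Over all clusters control clone 8 was farthest most often, in 31.0%, against 28.8% for clone 9.

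**Figure D5:**
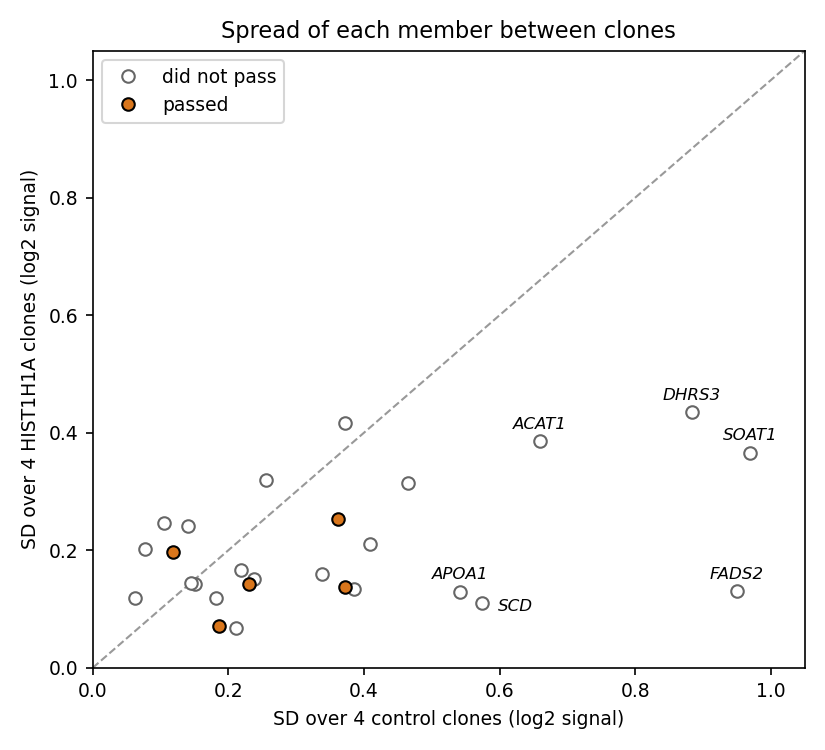
SD of the log2 signal over the 4 control clones (x axis) and over the 4 *HIST1H1A* clones (y axis) for each of the 27 measured members; the dashed line marks equal SDs. In 20 of 27 members the point lies below the line, and members with an SD over 0.5 in either group are named.

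Second clusters were named for 3 members, and none of them passed. Their log2 fold changes were 0.03 for *FDPS*, 0.18 for *SCD* and 0.24 for *CPT2*, all from dimmer clusters than those used above, and for *CPT2* the sign differed from that of the brighter cluster.

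Promoter windows of the RefSeq annotation, from 250 bases before to 50 after the start of transcription, were at hand for 22 of the 27 measured members. *HSD17B6*, *HSD17B12*, *SOAT2*, *APOA1* and *APOC3* had none. The windows of *ELOVL1*, the one with a searched motif among the 4 members that passed and had a window, and of the 3 neighbouring desaturase genes, added after their values were seen, are shown 5′ to 3′ on each gene's own strand (build GRCh38.p14), with the CCAAT box in capitals on either strand. For *FADS2* the first of 2 listed windows is given. Only the first listed window of each gene was searched.
*ELOVL1* (chr1:43367962-43368261, minus strand): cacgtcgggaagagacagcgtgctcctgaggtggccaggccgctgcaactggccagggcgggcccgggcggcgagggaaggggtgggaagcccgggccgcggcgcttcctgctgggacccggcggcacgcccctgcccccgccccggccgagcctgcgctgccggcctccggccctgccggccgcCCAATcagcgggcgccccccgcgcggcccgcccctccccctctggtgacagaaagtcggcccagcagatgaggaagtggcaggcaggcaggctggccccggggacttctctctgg
*FADS1* (chr11:61816954-61817253, minus strand): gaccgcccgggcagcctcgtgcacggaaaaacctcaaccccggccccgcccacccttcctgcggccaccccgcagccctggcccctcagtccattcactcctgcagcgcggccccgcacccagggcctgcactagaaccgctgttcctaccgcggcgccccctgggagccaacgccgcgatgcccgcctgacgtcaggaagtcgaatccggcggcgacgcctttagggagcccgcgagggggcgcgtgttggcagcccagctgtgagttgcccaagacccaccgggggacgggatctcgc
*FADS2* (chr11:61815953-61816252, plus strand): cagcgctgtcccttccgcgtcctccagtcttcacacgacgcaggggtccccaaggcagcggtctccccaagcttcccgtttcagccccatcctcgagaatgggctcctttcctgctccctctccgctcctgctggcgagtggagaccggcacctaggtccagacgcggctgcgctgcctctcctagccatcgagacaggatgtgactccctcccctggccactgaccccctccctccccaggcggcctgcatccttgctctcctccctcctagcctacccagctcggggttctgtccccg
*FADS3* (chr11:61891496-61891795, minus strand): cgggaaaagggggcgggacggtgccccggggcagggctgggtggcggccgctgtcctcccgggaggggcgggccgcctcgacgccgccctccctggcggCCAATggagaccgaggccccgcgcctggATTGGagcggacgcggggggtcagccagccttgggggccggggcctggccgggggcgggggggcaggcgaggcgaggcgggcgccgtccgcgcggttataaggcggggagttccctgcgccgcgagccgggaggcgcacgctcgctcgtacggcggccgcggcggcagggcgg
In the window of *ELOVL1* the CCAAT box began 65 bases before the start, and that of *FADS3* held 1 on each strand. Neither the *FADS1* window nor the *FADS2* window given held any motif searched, and the other *FADS2* window was not searched. The CCAAT box, the letters CCAAT on either strand, was found in 10 of the 22 member windows and in 35.7% of all 27305 windows of the same length. Besides *ELOVL1* and *FADS3*, these were the windows of *MVK*, *FDPS*, *DHCR7*, *SOAT1*, *SCD*, *ELOVL3*, *HSD17B7* and *ACAT1*, and that of *MVK* held 5 matches. The letters TATAAA were found for *IDI2* alone, and in 12.0% of all windows. A sterol response element written as TCACCCCAC was in no member window and in 0.425% of all windows. The androgen response element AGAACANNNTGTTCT and direct repeats of AGNTCA with spacers of 1, 4 or 5 bases were in no member window and each in under 0.11% of all windows. These are matches of letters in a fixed window and say nothing of binding. The median GC content was 64.8% in member windows and 58.3% in all.

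Across 8 wider lists of lipid genes, 22 measured genes were not members. Of these, *LBR* and *OSBPL9* rose and *TM7SF2* and *DGAT2* fell, 18 did not pass, and the median log2 fold change was -0.23. Over all 4072 named genes 12.5% passed, and the median log2 fold change was 0.03. The counts and medians of each wider list above are to be read beside the same background. No gene passed among the 2 measured of 25 lipid-sensing transcription regulators or the 6 measured of 35 genes of retinoid and vitamin D metabolism. Among the 5 measured of 41 steroid hormone genes only *HSD17B6* passed, and none of 18 drug and fatty acid P450s was measured.

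Markers of the cell line's own type moved with the groups. All 5 measured of 19 luminal prostate markers fell (*FOLH1*, *EHF*, *KRT8*, *KRT18* and *CREB3L4*), and their mean log2 signal was 7.32 to 7.90 in control clones and 4.58 to 4.64 in *HIST1H1A* clones. The mean of *FOLH1* in *HIST1H1A* clones, 2.65, was under the median of all array values. Of 6 measured of 18 stromal and mesenchymal markers 2 rose (*VIM* and *ZEB1*), with a mean level of 3.42 to 3.54 in control and 4.02 to 4.11 in *HIST1H1A* clones. The median log2 fold change of these 6 was 0.004. *DCN*, *LUM*, *THY1* and *TAGLN*, which did not pass, were at -0.005, -0.09, -0.27 and 0.01, against 2.86 for *VIM* and 0.89 for *ZEB1*. In control and *HIST1H1A* clones, the means of *DCN* (2.07 and 2.06) and *LUM* (2.43 and 2.34) were under the median of all array values. Of 3 measured of 14 neuroendocrine markers 1 rose (*NCAM1*), with a mean level of 2.81 to 3.19 and 3.55 to 3.66 and a median log2 fold change of 0.22. *NTS* and *CALCA* did not pass and were at 0.05 and 0.22, against 1.36 for *NCAM1*. The means of *NTS* and *CALCA* were under the median of all array values in both groups. The part of all these markers in the changes of the lipid genes was not tested. Array medians ranged from 3.246 to 3.297.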

How the data were processed

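RNA from 8 LNCaP clones was run on 8 Affymetrix Human Gene ST arrays. The values that the authors deposited are log2 signals per transcript cluster, made with Partek per the labels. How they were summarized and normalized is not given in the sources used here, and they were used as deposited. Of 16377 clusters, 4247 carried 1 gene symbol after symbols were updated through gene identifiers, and a gene with several clusters was read from the brightest. The strand and specificity of a cluster's probes were not checked.

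In R 4.3.3, limma 3.58.1 (lmFit, then eBayes) was fitted to all 8 arrays without covariates, and p-values were adjusted by Benjamini-Hochberg over all clusters. Intervals are 95% and unadjusted. No source says whether clones were cultured or hybridized in batches. The members, the gene lists and the motifs were chosen with earlier results of these data known. All measured members were named, with every array's value for those that passed or changed over 2-fold, and from the lists up to 3 rises and 3 falls each. Other genes shown by clone were chosen after their values were seen. The fit was tested on simulated data. Alternatives were a t-test, which the study's methods name for replicate experiments and not for the arrays, limma with trend and robust settings, quantile normalization, median centring, leaving out dim clusters, testing named clusters alone, averaging a gene's clusters, stricter fold rules, leaving out each array, a block on clone number, and array weights. The number of arrays limits the precision.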

Additional observations from a re-analysis of the deposited data

Results flagged for a closer look

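In 5 of 62 groups of 4 clones, 1 clone lay far from the other 3 for a gene named above, where chance would flag 3.1 groups (1 in 20). In control clones, *DHRS3* was at 6.84 in clone 4 with the nearest other clone at 5.22, *FADS3* was at 5.61 in clone 3 with the nearest at 5.20, and *APOC3* was at 4.09 in clone 8 with the nearest at 4.28. In *HIST1H1A* clones, *ACACB* was at 6.07 in clone 8 with the nearest at 5.46, and *OSBPL9* was at 5.79 in clone 8 with the nearest at 6.34. Of these genes *OSBPL9* alone passed the test between groups. Control clone 9 in *FADS2*, at 5.46, was not among them by this measure.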

How the results depend on the processing

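The number of members that passed was 5 and stayed at 4 to 6 under limma with trend and robust settings, quantile normalization, median centring, when dim clusters were left out, when named clusters alone were tested, with a gene's clusters averaged and with array weights, the last chosen after seeing the data. The t-test called 2 members (*ELOVL1* and *CPT1A*, while *PMVK*, *FADS1* and *HSD17B6* had adjusted p of 0.116, 0.0647 and 0.0550), 552 clusters and 7 list genes, against 948 clusters and 17 list genes by limma. Of the lipid genes beyond the members, *LBR*, *TM7SF2* and *OSBPL9* lost their calls (adjusted p = 0.0959, 0.0905 and 0.0715 from the t-test). *DGAT2* kept its call (adjusted p = 0.00557 from the t-test). With a fold over 2 as well, which the study also required of its arrays, 2 members (*FADS1* and *ELOVL1*) and 618 clusters passed. *HSD17B6*, *CPT1A* and *PMVK* did not, at 1.63-, 1.68- and 1.73-fold. Limma's treat, which tests against a 1.5-fold change, called 1 member (*ELOVL1*), 263 clusters and 5 list genes. Leaving out 1 array gave 2 to 5 members, 602 to 963 clusters and 8 to 17 list genes, and the members were fewest, at 2, without *HIST1H1A* clone 9 or 10. *FADS2*, which did not pass, passed with the filter on dim clusters (adjusted p = 0.04997 from limma), with named clusters only (0.0369) and with array weights (log2 fold change -1.65, 0.0150), and *FDPS* passed only without control clone 3. The median of the members, 0.003, lay between -0.02 and 0.08 in all settings.

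Clone numbers 8 and 9 occur in both groups. Over all clusters, the deviations of same-numbered clones from their group means had correlations of 0.070 and -0.217. These values cannot tell whether same-numbered clones shared anything beyond the number, such as culture or hybridization. On those 4 arrays, the fit with a replicate block called 0 members, 0 list genes and 0 clusters (2103 at an unadjusted p under 0.05), and the fit without it 0 members, 3 list genes and 75 clusters. The change of *LBR* minus that of *TM7SF2* was 1.48 on those arrays, against 2.66.

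No member that passed changed sign. Estimates of other members did, none of them past the test, and those with the largest values on all 8 arrays were *SOAT1* (0.60), *DHRS3* (0.42) and *CPT2* (-0.27). With median centring *IDI2* was at -0.00033, and with array weights *DHRS3* was at -0.15. On clones 8 and 9 only, with or without the block, *HSD17B7* was at -0.22, *DHCR7* at 0.60, *SOAT1* at -0.33, *SOAT2* at 0.090, *ELOVL3* at 0.023 and *CPT2* at 0.047. When single arrays were left out, estimates ran from -0.019 to 0.17 for *RDH16*, -0.17 to 0.13 for *IDI1*, -0.077 to 0.060 for *IDI2*, -0.21 to 0.11 for *DHCR7*, -0.10 to 0.34 for *APOA1*, -0.064 to 0.021 for *ELOVL3* and -0.37 to 0.12 for *ACAT1*.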
